A study of Mus musculus with 7 samples.

Results

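The cholesterol and fatty acid synthesis genes described here are 31 mouse genes, taken by symbol from a list of sterol enzymes, SREBP regulators and fatty acid enzymes, out of 38124 genes in the deposited count table. The list holds 18 genes of sterol synthesis, 4 regulators of the SREBP pathway and 9 genes of fatty acid synthesis, and all 31 were in the table and passed the filter on low counts. The study asked what conditional Sox9 expression does to the transcriptome of basal progenitors of the embryonic mouse neocortex. mRNA was sequenced from 3 libraries of cells given the control construct and 4 libraries of cells given the conditional Sox9 construct. All 7 came from *Tis21*-CreERT2 embryos, whose tamoxifen-dependent Cre is driven by the *Tis21* locus of progenitors that divide to produce more committed cells. All were treated with tamoxifen, electroporated in utero at E13.5 and collected 48 hr later at E15.5. Sorting on high RFP, the fluorescent protein that both constructs express after Cre recombination, yielded the cells, and cortices of several embryos were pooled for a sort. RFP also marks the progeny of the targeted cells, so the sorted cells need not all be progenitors.

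Cells make cholesterol from acetyl-CoA, through mevalonate, isoprenoid, squalene and lanosterol intermediates. Fatty acids are made from the same acetyl-CoA, first as palmitate and then by elongation and desaturation. Both routes are under the control of the SREBP transcription factors, which are held in the endoplasmic reticulum by Scap and Insig proteins when sterols are plentiful and are released to the nucleus when sterols are scarce. The developing brain depends largely on its own synthesis, since little cholesterol crosses from the blood, and dividing cells need sterols and fatty acids for new membrane.

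The promoter windows of 4 genes are shown first, namely the 3 genes that passed the test below and *Srebf2*, whose ratio to *Srebf1* did not overlap between the groups. Each window is a RefSeq sequence of GRCm38.p6 that runs 5′ to 3′ on the strand of the gene, from 250 bases before the start to 50 bases after it, 300 bases in all. That of *Hmgcs1* lies at chr13:119690101-119690400 (plus strand), that of *Insig1* at chr5:28071162-28071461 (plus strand), that of *Acly* at chr11:100527951-100528250 (minus strand) and that of *Srebf2* at chr15:82147019-82147318 (plus strand). Capitals mark the letters CCAAT, the core of the NF-Y box, on either strand (ATTGG as printed on the other strand), and TCACNCCA, 8 letters of a sterol response element, the kind of site that SREBP proteins bind.
Hmgcs1: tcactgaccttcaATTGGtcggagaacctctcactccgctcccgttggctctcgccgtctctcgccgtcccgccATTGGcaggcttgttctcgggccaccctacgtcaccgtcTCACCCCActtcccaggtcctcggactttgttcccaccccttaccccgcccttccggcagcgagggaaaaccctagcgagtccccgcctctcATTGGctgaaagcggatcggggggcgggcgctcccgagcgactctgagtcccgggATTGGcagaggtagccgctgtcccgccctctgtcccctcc
Insig1: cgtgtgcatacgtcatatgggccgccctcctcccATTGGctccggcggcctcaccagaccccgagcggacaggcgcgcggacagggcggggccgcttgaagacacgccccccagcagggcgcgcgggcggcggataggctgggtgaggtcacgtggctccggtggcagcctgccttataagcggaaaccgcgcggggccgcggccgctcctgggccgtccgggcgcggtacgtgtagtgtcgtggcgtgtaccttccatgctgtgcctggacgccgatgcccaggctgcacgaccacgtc
Acly: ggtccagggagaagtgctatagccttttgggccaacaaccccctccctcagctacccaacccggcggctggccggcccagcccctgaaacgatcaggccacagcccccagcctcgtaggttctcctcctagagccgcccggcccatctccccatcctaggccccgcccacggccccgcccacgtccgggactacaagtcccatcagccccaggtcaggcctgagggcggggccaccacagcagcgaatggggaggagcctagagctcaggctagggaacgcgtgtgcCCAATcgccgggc
Srebf2: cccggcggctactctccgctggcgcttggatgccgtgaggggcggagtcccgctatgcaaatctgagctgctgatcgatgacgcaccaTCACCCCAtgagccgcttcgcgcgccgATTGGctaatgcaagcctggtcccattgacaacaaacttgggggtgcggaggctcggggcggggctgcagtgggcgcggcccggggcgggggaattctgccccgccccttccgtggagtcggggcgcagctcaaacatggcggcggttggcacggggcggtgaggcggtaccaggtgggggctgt

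In these windows, *Hmgcs1* held the letters TCACNCCA once, beginning 137 bases before the start, with 4 matches to CCAAT. The *Srebf2* window held TCACNCCA 162 bases and CCAAT 135 bases before the start. *Insig1* and *Acly* held no TCACNCCA and a single CCAAT match each, which lay 216 bases before the start of *Insig1* and 37 bases after that of *Acly*. A match describes the letters and not a bound site.

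At least 1 window was found for 25 of the 31 genes, which had 31 windows between them because 4 genes had several starts. The letters were searched on both strands, and a gene was counted when any of its windows held them. CCAAT was present for 20 of the 25 genes (80.0%) and for 14 of the 15 sterol synthesis genes (93.3%), against 43.1% of 11177 tested protein-coding genes and 41.1% of all 27025 genes with a window. Counted by window, it was in 67.7% of the 31 windows, against 37.7% of the windows of the tested protein-coding genes and 37.4% of all windows. GGGCGG, the core of the Sp1 box, was found for 20 of 25 genes (80.0%) against 65.2% of the tested protein-coding genes and 38.2% of all genes with a window. CACGTG, an E-box, was found for 6 of 25 genes, against 11.1% and 8.09%. The longer sterol element letters TCACNCCAC were found only in *Hmgcs1* (4.0%), against 1.4% and 1.44%. TCACNCCA, which is contained in those letters and was chosen after the data were seen, was in *Hmgcs1*, *Msmo1* and *Srebf2* (12.0%), against 4.59% and 4.97%. No other set of letters contains another.

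The libraries held 10465562 to 12907778 counts in the control group and 4429704 to 10520214 in the group labelled Sox9. Genes with at least 1 count numbered 23387 to 23791 and 24219 to 27370. Counts of *Sox9* itself were 362, 1026 and 668 with the control construct and 370, 435, 277 and 177 under the Sox9 label, or 63.9 ± 27.5 (SD, n = 3) against 40.0 ± 8.33 (SD, n = 4) CPM (counts divided by the scaled library total). Its log2 fold change was -0.68 ± 0.25 (SE; adjusted p = 0.0493). Whether reads of the construct's *Sox9* coding sequence were counted on this gene is not stated, so its counts do not check the label, and the group is called by its label throughout. The scaling uses TMM factors, which assumes that most genes did not change. Fold changes are given as labelled Sox9 over control, and a gene was called when the edgeR quasi-likelihood test gave an adjusted p under 0.01 over all 16522 genes tested. The labels call the libraries biological replicates, and p-values measure the spread between them.

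Of the 31 genes, 3 were called lower in the libraries labelled Sox9: *Hmgcs1*, *Insig1* and *Acly*. Their folds, control over labelled Sox9, were 1.405, 1.54 and 1.38. None was called higher by edgeR, and none had an unadjusted p under 0.05 in that direction, against 26.8% of all genes. Over all genes tested, 3.43% were called lower and 11.3% higher. The log2 fold change was below 0 for 25 of the 31 genes, against 50.2% of all genes, and its median was -0.28 against -0.003 for all genes. In CPM the groups did not overlap for 11 genes that were lower and 1 that was higher, against 16.4% and 22.9% of all genes. Unadjusted p was under 0.05 for 15 lower genes, against 17.3% of all genes, and adjusted p was under 0.05 for 9, against 10.8%.

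**Figure D1:**
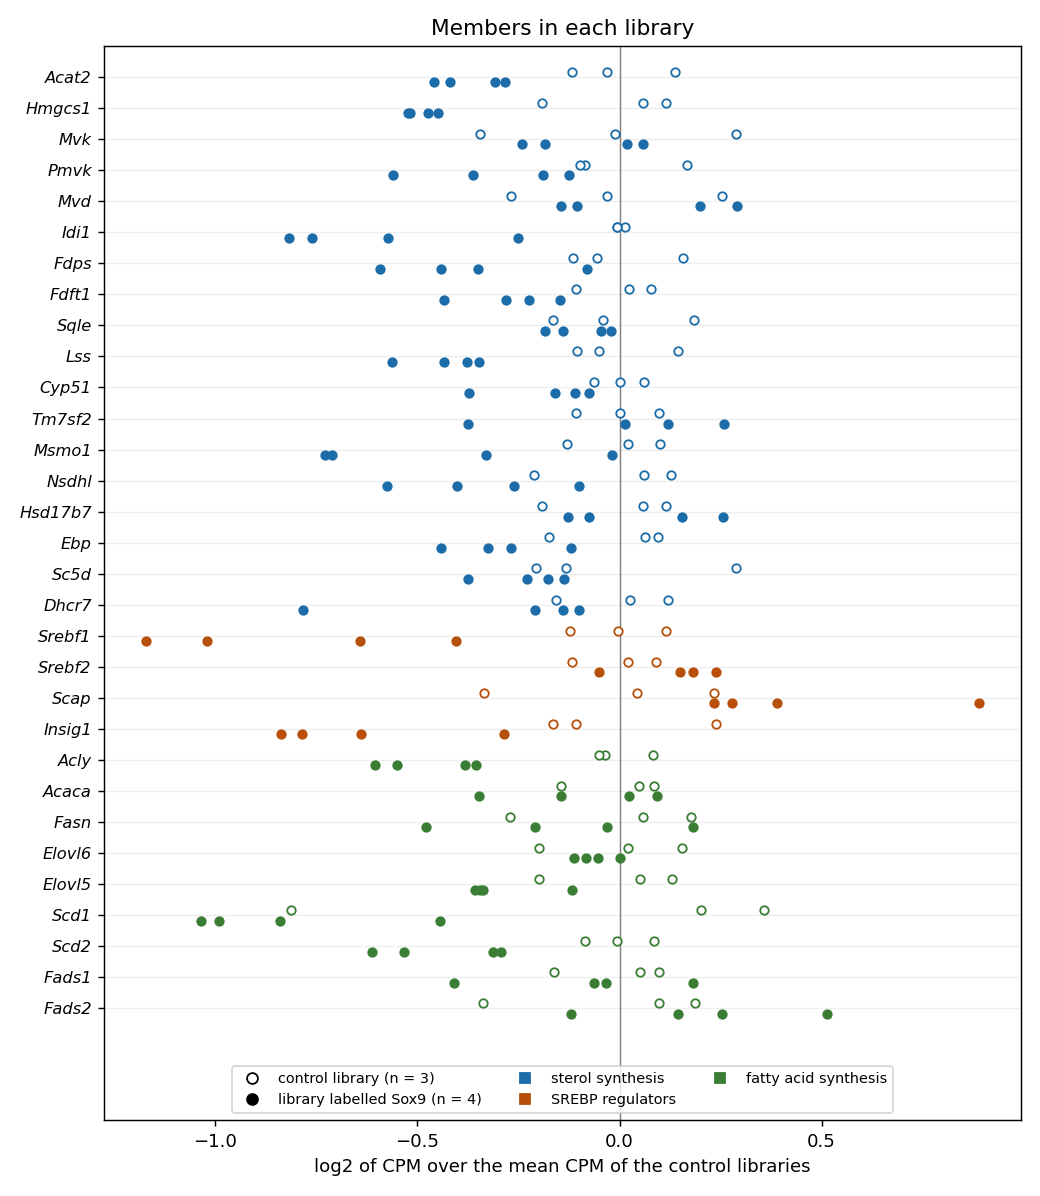
Each of the 31 genes is plotted in each library as log2 of its CPM over the mean CPM of the 3 control libraries (x axis). Open circles are control libraries and filled circles the 4 libraries labelled Sox9, coloured by role. The 2 groups are apart for *Hmgcs1*, *Acly*, *Scd2* and *Srebf1*, and they interleave for *Mvk*, *Sqle*, *Elovl6* and *Fads1*.

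These counts have to be read beside the level of the genes, because log2 fold changes in these libraries depended on level. The 7584 genes with an average log2 CPM of at most 3 had a median log2 fold change of 1.10, and none of the 31 genes was among them. Of these genes 1656 were called higher, against 187, 17 and 2 genes in the next ranges of level described below. The share of all genes called higher thus comes mostly from a range without members. From 3 to 6, the median was -0.14 over 5770 genes and -0.02 over 12 members, with 0 members called against 4.59% of that range. From 6 to 8, it was -0.25 over 2491 genes and -0.29 over 12 members, with 1 member called (*Insig1*) against 8.15%. Above 8, it was -0.28 over 677 genes and -0.36 over 7 members, with 2 members called (*Hmgcs1* and *Acly*) against 7.68%. The members' medians thus lay within 0.113 log2 units of those of the genes at their own level.

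**Figure D2:**
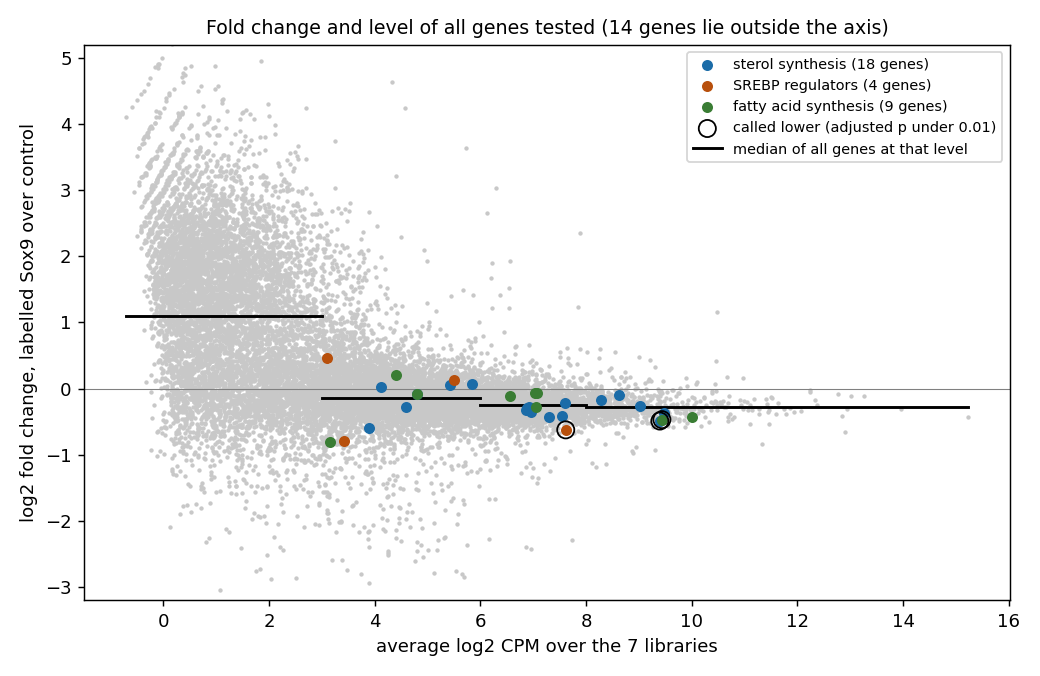
Log2 fold change, labelled Sox9 over control (y axis), is plotted against average log2 CPM (x axis) for the 16522 genes tested (grey), with the 31 genes coloured by role, the 3 called genes ringed and black bars at the median of all genes in each range of level. The bars step down from 1.10 at the lowest level to -0.28 at the highest, and the 3 ringed genes lie below the bars of their ranges.

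Scaling also mattered. With library totals in place of TMM factors, a scaling chosen after the data were seen, all genes shifted up by 0.23 log2 units at the median, the members' median was -0.05, and 0 of the 31 were called in either direction, with 1.36% of all genes called lower and 14.8% higher. After cyclic loess, which removes the dependence on level, the members' median was -0.04 with limma-trend, and again 0 were called in either direction, with 1.72% of all genes called lower and 2.2% higher. The log2 fold changes of *Hmgcs1*, *Insig1* and *Acly* were -0.49, -0.62 and -0.47 with TMM factors. They were -0.26, -0.39 and -0.24 with library totals, and -0.21, -0.37 and -0.20 after loess. At an unadjusted p under 0.05, 4 of the 31 were lower and 2 higher with library totals, against 4.68% and 33.5% of all genes. After loess 6 were lower and 1 higher, against 13.6% of all genes lower (2245 of 16522) and 2233 of 16522 higher. DESeq2 went the other way and called 8 lower and 0 higher (*Acat2*, *Acly*, *Hmgcs1*, *Idi1*, *Insig1*, *Lss*, *Scd2* and *Srebf1*), with 7.42% of its tested genes called lower and 11.0% higher. Without the filter on low counts, edgeR called 8 lower and 0 higher, against 4.47% and 8.19% of all genes.

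**Figure D3:**
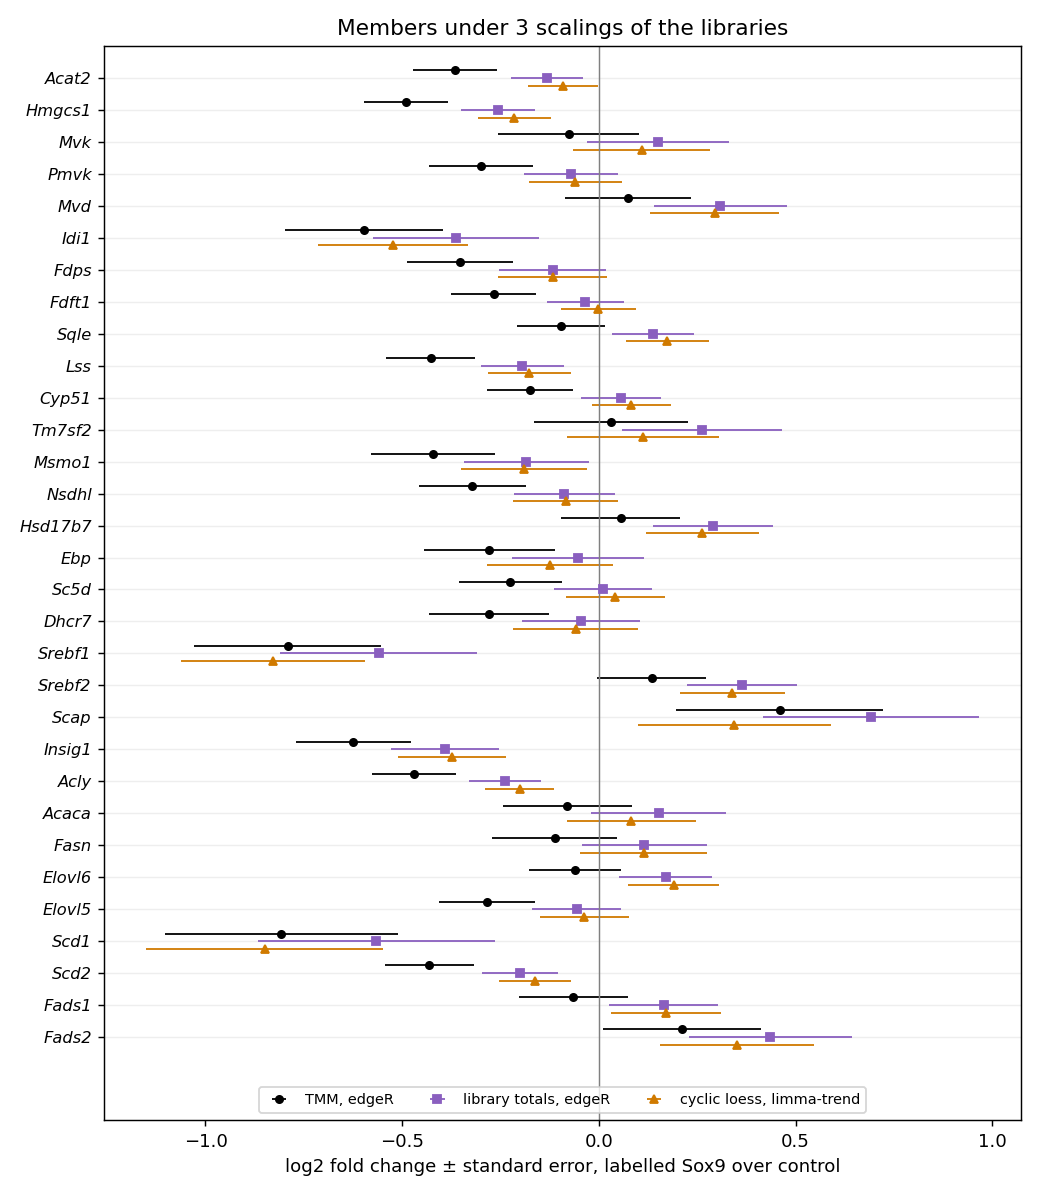
Log2 fold changes with their standard errors (x axis) are plotted for each of the 31 genes under TMM factors (black circles), library totals (purple squares) and cyclic loess (orange triangles). Relative to TMM, the points move to the right under the other scalings, except those of *Srebf1*, *Scap* and *Scd1* after loess. *Hmgcs1*, *Idi1*, *Srebf1*, *Insig1*, *Acly* and *Scd1* stay below 0 under all 3, while *Sqle*, *Mvk* and *Elovl6* cross it.

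When each library was left out in turn, the 3 called genes stayed below 0 while their calls came and went, with fewer samples in each of the 7 fits. The log2 fold change ranged from -0.56 to -0.42 for *Hmgcs1*, from -0.70 to -0.48 for *Insig1* and from -0.50 to -0.38 for *Acly*. Their adjusted p ranged from 0.00638 to 0.0295, from 0.00345 to 0.0456 and from 0.00865 to 0.0385 by edgeR. Without control replicate 2, Sox9 replicate 1 or Sox9 replicate 2, 0 of the 31 genes were called lower, where 1.2%, 1.98% and 2.28% of all genes were. At an unadjusted p under 0.05, 9 of the 31 were lower without control replicate 2, against 11.3% of all genes, and 11 were lower without Sox9 replicate 1 or 2, against 15.1% and 15.3%. None was higher at that p, against 24.8%, 22.5% and 24.9% of all genes, which include the range of lowest level. *Insig1* alone was called without control replicate 1 or without Sox9 replicate 4, with 2.74% and 1.94% of all genes called lower. *Hmgcs1* alone was called without control replicate 4 (1.55% of all genes), and *Hmgcs1* and *Acly* without Sox9 replicate 3 (1.95%).

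The genes of the mevalonate and isoprenoid steps had the lowest median of the sterol route, -0.35 over 7 genes, with 1 called lower. *Hmgcs1* (ENSMUSG00000093930, chr13:119690379-119708260), the cytosolic synthase that makes HMG-CoA, had 839, 872 and 706 CPM in the control libraries. The other 4 libraries had 590, 562, 580 and 560 CPM. All of these were below every control, and they spanned a narrow range. Its means were 805.7 ± 88.2 (SD, n = 3) and 573.3 ± 14.3 CPM (SD, n = 4), and its log2 fold change was -0.49 ± 0.11 (SE; edgeR adjusted p = 0.00437). An antisense gene on the other strand covers 12.1% of its exonic bases, and whether the counting used strand is not stated.

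*Acat2*, the cytosolic thiolase that begins the route by joining acetyl-CoA units, had 797, 895 and 751 CPM in the controls against 609, 658, 670 and 593. These groups did not overlap, but the difference was not called (log2 fold change -0.36 ± 0.11; edgeR adjusted p = 0.0188). For *Acat2* the log2 fold change was -0.09 after loess. Its near-identical neighbour *Acat3*, looked up after the values were seen, had 31 counts over all 7 libraries, so few of the reads were assigned there. *Idi1*, which isomerizes isopentenyl diphosphate, had 18.2, 17.9 and 17.9 CPM against 12.1, 10.2, 10.6 and 15.1. It was lower in 4 of 4 libraries, with a log2 fold change of -0.60 ± 0.20 (edgeR adjusted p = 0.035), and its control libraries were alike to within 0.149 CPM (SD).

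Among the other enzymes of these steps, *Pmvk*, the phosphomevalonate kinase, had 123.4 to 148.1 CPM in controls and 89.5 to 121.0 in the libraries labelled Sox9. *Fdps*, which makes farnesyl diphosphate, had 131.5 to 158.7 CPM against 94.4 to 134.6, and here the groups overlapped through Sox9 replicate 3. Of the exonic bases of *Fdps*, 26.7% are shared with another annotated gene on its strand. *Mvk*, mevalonate kinase, had 22.5 to 34.9 against 24.2 to 29.8 CPM, within the spread of the controls. *Mvd*, which decarboxylates mevalonate diphosphate, had 45.8 to 65.8 against 49.9 to 67.5 CPM and the only log2 fold change above 0 of these 7 genes, 0.07 ± 0.16, which turned to -0.007 with DESeq2. None of these 4 was called (edgeR adjusted p from 0.056 for *Fdps* to 0.774 for *Mvk*).

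The 3 genes of the squalene steps were all below 0 and none was called, with a median of -0.27. *Lss*, the cyclase that closes squalene epoxide into lanosterol, had 179, 205 and 172 CPM in controls against 137, 143, 146 and 125. The groups did not overlap, and the log2 fold change of -0.43 ± 0.11 missed the threshold (edgeR adjusted p = 0.0117). *Fdft1*, squalene synthase, had 536.2 to 609.5 against 427.4 to 521.8 CPM, without overlap (log2 fold change -0.27 ± 0.11; edgeR adjusted p = 0.071). For *Fdft1* the log2 fold change was -0.0012 after loess and -0.034 with library totals. The gene *Ctsb* on the other strand covers 18.3% of its exonic bases and had 43092 counts, so part of the *Fdft1* reads may be uncertain. *Sqle*, the squalene epoxidase and a rate-limiting enzyme of the route, had 462.8, 395.6 and 363.3 against 358.6, 369.9, 401.1 and 394.7 CPM, and these values interleaved. Its log2 fold change was -0.10 ± 0.11 (edgeR adjusted p = 0.547) and turned to 0.17 after loess.

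Of the 8 genes that take lanosterol to cholesterol, 6 were below 0 and none was called, with a median of -0.25. *Msmo1*, the sterol C4-methyl oxidase, had 219, 232 and 198 CPM in controls against 172, 132, 131 and 214. Sox9 replicate 4 lay among the controls and the other 3 below them (log2 fold change -0.42 ± 0.16; edgeR adjusted p = 0.0529). *Cyp51*, the lanosterol demethylase, had 316.7 to 345.0 against 255.6 to 313.9 CPM and was the only gene of these steps whose groups did not overlap. Its log2 fold change of -0.18 ± 0.11 was not called (edgeR adjusted p = 0.234), was -0.09 without Sox9 replicate 1 and turned to 0.08 after loess.

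*Nsdhl*, a sterol dehydrogenase that works with *Msmo1* in removing the C4-methyl groups, had a log2 fold change of -0.32 ± 0.14, with 113.6 to 143.7 against 88.3 to 122.7 CPM. *Dhcr7*, whose enzyme makes cholesterol from 7-dehydrocholesterol, had 119.9 to 145.3 against 77.8 to 124.9 CPM, with Sox9 replicate 4 the lowest. *Ebp*, the sterol isomerase, had -0.28 ± 0.17, and *Sc5d*, the sterol C5-desaturase, had -0.23 ± 0.13, which was -0.05 without control replicate 2 and turned to 0.04 after loess. *Tm7sf2*, a sterol C14-reductase, had 0.03 ± 0.20, and *Hsd17b7*, the 3-ketosteroid reductase of the route, had 0.06 ± 0.15. Both of the latter were below 0 with DESeq2 (-0.05 and -0.03). The edgeR adjusted p of these 6 ran from 0.0809 for *Nsdhl* to 0.92 for *Tm7sf2*.

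Of the 4 regulators of the SREBP pathway, 1 was called lower, and the log2 fold changes of the other 3 differed in sign. *Insig1* (ENSMUSG00000045294, chr5:28071363-28078662), which retains the Scap and SREBP complex in the endoplasmic reticulum and is itself a SREBP target, had 227, 288 and 218 CPM in the controls. The libraries labelled Sox9 had 137, 157, 142 and 201 CPM, all below every control, with Sox9 replicate 4 the nearest to them. Its log2 fold change was -0.62 ± 0.15 (SE; edgeR adjusted p = 0.00633), and its means were 244.5 ± 38.2 (SD, n = 3) and 158.9 ± 29.0 CPM (SD, n = 4).

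*Srebf1* (chr11:60199089-60222581), whose SREBP-1 products favour fatty acid genes, had 142, 144 and 145 counts among the controls, or 13.6, 12.5 and 14.8 CPM. Under the Sox9 label there were 44, 71, 78 and 49 counts, or 6.04, 6.71, 8.72 and 10.3 CPM. It had the second lowest log2 fold change of the 31 genes, -0.79 ± 0.24, and did not pass the threshold (edgeR adjusted p = 0.0212), although the 4 libraries were all below the controls. After loess its log2 fold change was -0.83. *Srebf2* (chr15:82147181-82205379), whose SREBP-2 product favours sterol genes, had 43.2, 39.2 and 45.3 against 41.1, 48.3, 50.2 and 47.2 CPM. The log2 fold change of 0.13 ± 0.14 was not called (edgeR adjusted p = 0.486). *Scap* (chr9:110333288-110384950), which carries SREBPs to the Golgi for cleavage, had 8.12, 5.47 and 7.12 against 8.38, 8.13, 9.06 and 12.8 CPM. It was the only gene whose libraries labelled Sox9 all lay above the controls (8.127 CPM against 8.124 at the nearest), and it was not called (log2 fold change 0.46 ± 0.26; edgeR adjusted p = 0.194).

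Ratios between 2 genes of a library do not depend on a factor that scales the whole library, such as a TMM factor or a library total, although loess, which adjusts by level, moves them. In all, 5 such pairs were compared with a two-sided exact permutation test over the 35 assignments of libraries to groups, whose smallest p is 0.0286. No ratio could therefore reach the threshold of 0.01 used for the genes, with or without adjustment. The log2 ratio of *Srebf2* to *Srebf1* counts was 1.67, 1.65 and 1.62 in the controls and 2.765, 2.85, 2.525 and 2.20 in the others. The controls were nearly equal and all 4 others lay above them, so that the mean ratio went from 3.128 to 5.996 *Srebf2* counts per *Srebf1* count. The difference was 0.94 log2 units (exact p = 0.0286, the smallest possible; 0.143 adjusted over the 5 pairs), and 1.17 when taken from values after loess, a choice made after the data were seen (exact p = 0.0286; 0.143 adjusted). Of the exonic bases of *Srebf1*, 1.935% are shared with *Rai1* on the other strand.

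*Insig1* to *Insig2*, a pair of genes with like roles, had log2 ratios of 1.72, 2.115 and 1.95 in controls against 1.06, 1.17, 1.66 and 1.63. The groups did not overlap, with a difference of -0.55 (exact p = 0.0857; 0.214 adjusted). *Insig2* itself had 64.0 ± 6.53 CPM in the control group (SD, n = 3) and 61.2 ± 11.2 CPM in the other (SD, n = 4), with a log2 fold change of -0.07 (edgeR adjusted p = 0.781). The remaining pairs overlapped between groups. Their differences were 0.31 for *Scd2* to *Scd1* (exact p = 0.371), 0.23 for *Elovl6* to *Elovl5* (exact p = 0.314) and 0.29 for *Fads2* to *Fads1* (exact p = 0.171), with adjusted values of 0.371, 0.371 and 0.286. All 3 differences stayed above 0 when each library was left out in turn. The difference for *Scd2* to *Scd1* was 0.08 without control replicate 1 and 0.63 without control replicate 4, that for *Elovl6* to *Elovl5* was 0.06 without control replicate 2 and 0.41 without control replicate 1, and that for *Fads2* to *Fads1* was 0.19 without Sox9 replicate 4 and 0.40 without Sox9 replicate 3. After loess, the difference for *Scd2* to *Scd1* was 0.69 (exact p = 0.0857; 0.19 adjusted) and that for *Fads2* to *Fads1* 0.18 (exact p = 0.286; 0.314 adjusted).

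**Figure D4:**
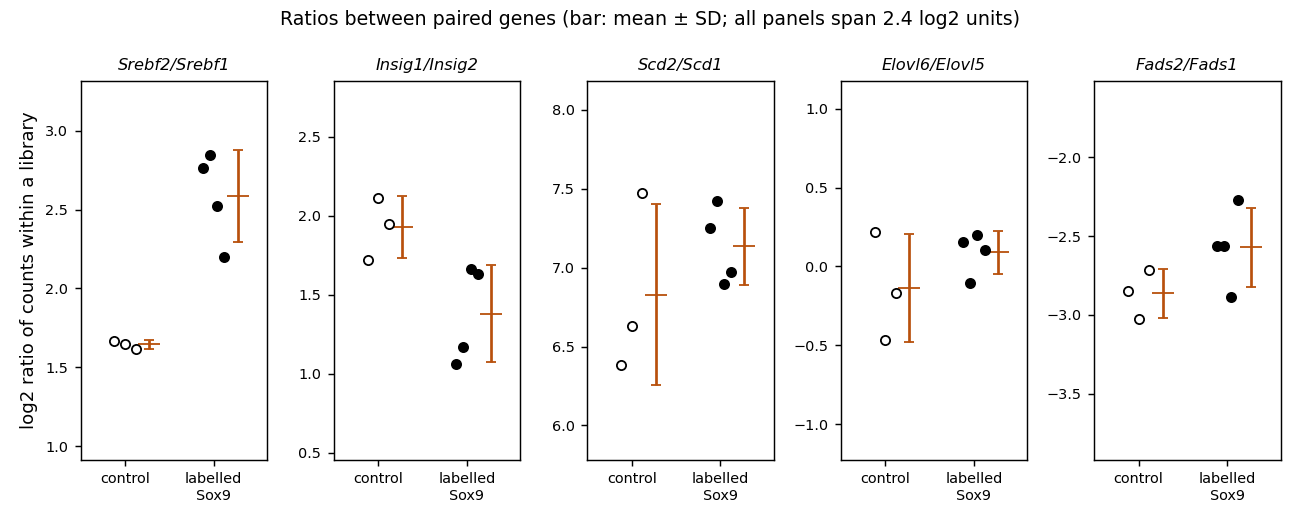
The log2 ratio of counts of 2 genes within a library (y axis, a span of 2.4 units in every panel) is plotted for 3 control libraries (open) and 4 libraries labelled Sox9 (filled), with mean ± SD in orange. The *Srebf2* to *Srebf1* ratio lies at 1.62 to 1.67 in controls and at 2.20 to 2.85 in the others, while the *Scd2* to *Scd1*, *Elovl6* to *Elovl5* and *Fads2* to *Fads1* panels overlap.

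The 9 fatty acid genes had a median log2 fold change of -0.11, and 8 were below 0, with 1 called lower. This median turned to 0.08 after loess and to 0.12 with library totals. It was -0.02 without Sox9 replicate 4, -0.05 and -0.06 without control replicates 1 and 4, and -0.20 and -0.21 without Sox9 replicate 3 and control replicate 2. *Acly* (ENSMUSG00000020917, chr11:100476353-100528000), the ATP-citrate lyase that supplies cytosolic acetyl-CoA to both the sterol and the fatty acid route, had 802, 871 and 793 CPM in the controls. The libraries labelled Sox9 had 540, 642, 631 and 561 CPM, all lower than every control. Its means were 821.9 ± 42.7 (SD, n = 3) and 593.6 ± 50.8 CPM (SD, n = 4), with a log2 fold change of -0.47 ± 0.11 (SE; edgeR adjusted p = 0.00557). The next enzymes of palmitate synthesis stayed near the controls. *Acaca*, the acetyl-CoA carboxylase that makes malonyl-CoA, had 25.8 to 30.3 against 22.4 to 30.4 CPM (log2 fold change -0.08 ± 0.16), and *Fasn*, fatty acid synthase, had 81.9 to 111.5 against 70.9 to 111.9 CPM (-0.11 ± 0.16). Neither was called (edgeR adjusted p = 0.743 and 0.622), and after loess they were 0.08 and 0.11.

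The desaturases included the most abundant member by CPM, *Scd2*, the stearoyl-CoA desaturase that predominates in developing brain. It had 1203, 1283 and 1140 CPM in controls against 836, 974, 986 and 790, with no overlap. Its log2 fold change of -0.43 ± 0.11 missed the threshold narrowly (edgeR adjusted p = 0.011) and was -0.16 after loess. *Scd1*, its paralog, had 14.4, 13.0 and 6.41 against 5.49, 5.67, 8.27 and 6.29 CPM. It had the lowest log2 fold change of the 31 genes, -0.81 ± 0.30 (edgeR adjusted p = 0.0486), but control replicate 4 lay among the libraries labelled Sox9. Reads of the 2 paralogs may be hard to assign where their sequences are alike. *Fads1*, the delta-5 desaturase of polyunsaturated fatty acids, had 123.2 to 147.6 against 103.8 to 156.4 CPM, and *Fads2*, the delta-6 desaturase, had 15.1 to 21.8 against 17.6 to 27.3 CPM. The latter was the only fatty acid gene above 0, at 0.21 ± 0.20 (edgeR adjusted p = 0.449), and was 0.07 without control replicate 2.

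The 2 elongases were not called. *Elovl5*, which lengthens polyunsaturated chains, had 128.0 to 160.8 CPM in controls and 116, 136, 116 and 115 in the libraries labelled Sox9, with a log2 fold change of -0.28 ± 0.12 (edgeR adjusted p = 0.0842). *Elovl6*, which lengthens palmitate to stearate, had 116.4 to 148.8 against 123.5 to 133.6 CPM and a log2 fold change of -0.06 ± 0.12 (edgeR adjusted p = 0.721), which turned to 0.19 after loess.

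Per kilobase of annotated exon, levels differed widely between the genes, which ranged from *Acat2* at 320.1 ± 29.0 CPM per kb in the controls (SD, n = 3) to *Scap* at 0.928 ± 0.180. *Scd2* followed at 221.2 ± 13.1, *Hmgcs1* at 175.4 ± 19.2, *Acly* at 155.7 ± 8.09 and *Fdft1* at 136.7 ± 8.91 CPM per kb. The mean ± SD ranges of the neighbours *Hmgcs1* and *Acly* overlapped, and their difference within each library was not tested. Of the regulators, *Insig1* was the most abundant at 79.0 ± 12.4 CPM per kb, followed by *Srebf2* at 5.92 ± 0.430 and *Srebf1* at 2.42 ± 0.199. Whether introns were counted is not stated, and counted introns would alter such levels.

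As a share of all counts, the 31 genes took 0.654% ± 0.0222 of a control library (SD, n = 3) and 0.607% ± 0.0337 of a library labelled Sox9 (SD, n = 4), a ratio of 0.928. The ranges were 0.630 to 0.673% and 0.588 to 0.657%, and they overlapped through Sox9 replicate 3. Sterol genes took 0.389% ± 0.0200 and 0.368% ± 0.0200, and the 4 regulators 0.0280% ± 0.00245 and 0.0238% ± 0.00366. Fatty acid genes took 0.237% ± 0.00236 and 0.215% ± 0.0184. *Scd2*, *Hmgcs1*, *Acat2* and *Acly* together made up 49.8 to 51.9% of the counts on the 31 genes in the controls and 45.8 to 48.5% in the other libraries, without overlap.

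**Figure D5:**
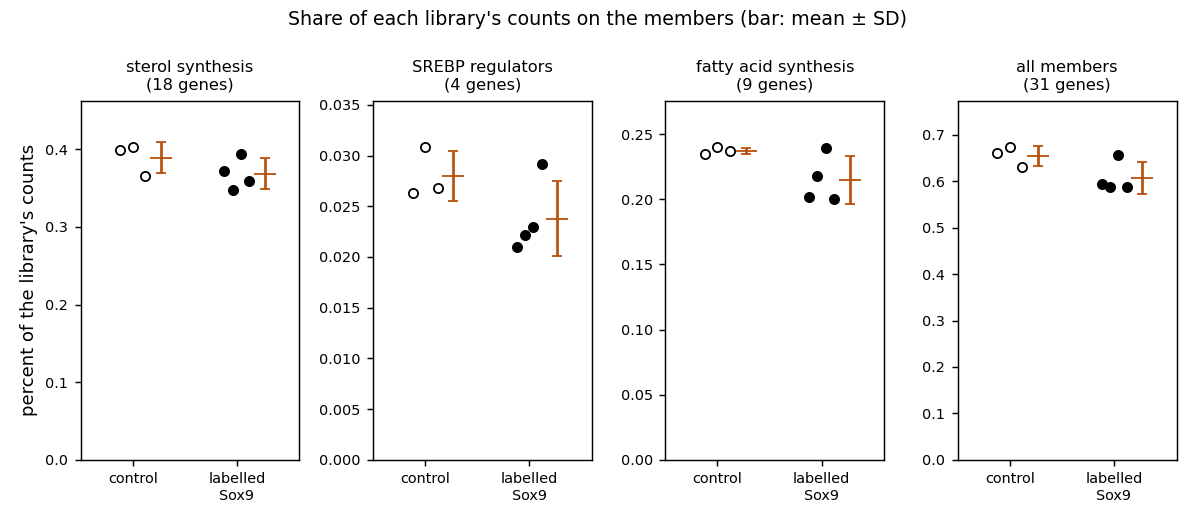
The percent of each library's counts that fell on the sterol genes, the regulators, the fatty acid genes and all 31 genes (y axis, from 0) is plotted for 3 control libraries (open) and 4 libraries labelled Sox9 (filled), with mean ± SD in orange. Each panel overlaps between groups, and Sox9 replicate 3 is the highest of its group for all 31 genes, at 0.657%.

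Other genes of these pathways were described with 6 lists of 133 genes, of which 122 were tested, 6 were called higher and 8 lower, with a median of -0.17. These counts and those of each list stand beside the 11.3% of all genes called higher and the 3.43% called lower. In the isoprenoid branch and other sterol enzymes, 0 of 14 were called higher and 1 lower (median -0.18). That gene was *Lbr*, a lamin-binding protein of the nuclear envelope that is also a sterol C14-reductase, with 104.9 to 163.7 CPM in controls and 65.2 to 88.7 in the libraries labelled Sox9 (log2 fold change -0.83; edgeR adjusted p = 0.00181). Of 17 other SREBP pathway regulators, 0 were higher and 1 lower (median -0.12), namely *Prkaa1*, a catalytic subunit of AMP-activated kinase (log2 fold change -0.75; edgeR adjusted p = 0.00554).

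In sterol uptake, efflux, transfer and storage, 1 of 21 was called higher and 1 lower, with a median of -0.06. *Soat2*, which esterifies cholesterol, had 1, 0 and 0 counts in the controls and 7, 13, 18 and 5 in the other libraries, a ratio of 43.3 on the scaled totals (95% exact interval 7.37 to 1750.0, for counting error only). It lies in the range of lowest level, where the median of all genes was 1.10, and its log2 fold change after loess was 0.78 (limma adjusted p = 0.265). *Npc2*, a lysosomal sterol carrier, fell from 284.3 ± 18.9 (SD, n = 3) to 206.9 ± 14.5 CPM (SD, n = 4; edgeR adjusted p = 0.00676). Among 22 other fatty acid synthesis and elongation enzymes, 1 was called higher and 0 lower (median -0.01). At an unadjusted p under 0.05, 5 of these were higher and 3 lower, against 26.8% and 17.3% of all genes. *Acacb*, the mitochondrial acetyl-CoA carboxylase that restrains fatty acid oxidation, rose from 1.29 ± 0.393 (SD, n = 3) to 7.77 ± 1.28 CPM (SD, n = 4; edgeR adjusted p = 0.000291).

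Of 25 genes of fatty acid activation, binding and glycerolipid synthesis, 3 were called higher and 3 lower, with a median of -0.16. *Acsbg1*, an acyl-CoA synthetase of brain, had 10.8, 27.1 and 18.6 CPM in controls and 3.98, 2.08, 3.465 and 3.15 in the others (log2 fold change -2.585; edgeR adjusted p = 0.000178). *Lpin3*, a phosphatidate phosphatase, rose from 1.27 ± 0.491 (SD, n = 3) to 7.38 ± 1.58 CPM (SD, n = 4), and *Cd36*, a fatty acid transporter also found on endothelial and myeloid cells, from 0.4655 to 3.89 CPM (edgeR adjusted p = 0.000496 and 0.00189). In fatty acid oxidation, 1 of 23 was called higher and 2 lower, and the median of -0.47 was the lowest of the 6 lists. After loess, the medians of the 6 lists, in the order described, were -0.02, -0.06, -0.03, -0.13, 0.0002 and -0.25. *Ppara*, the receptor that activates oxidation genes, had 18, 9 and 4 counts against 47, 48, 47 and 19 (edgeR adjusted p = 0.0024). *Echs1* and *Hadha*, enzymes of the mitochondrial oxidation cycle, had log2 fold changes of -0.53 and -0.51 (edgeR adjusted p = 0.0068 and 0.0074). Like *Soat2*, the genes *Acacb*, *Lpin3*, *Cd36* and *Ppara* lie in the range of lowest level, where the median of all genes was 1.10. After loess, the log2 fold change of *Cd36* went from 3.00 to 1.63 and that of *Ppara* from 2.37 to 1.49 (limma adjusted p = 0.0336 and 0.0309). With that scaling, 2 of the 122 genes were called higher (*Acacb* and *Lpin3*) and 1 lower (*Acsbg1*), and with library totals 7 and 2.

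Markers of progenitors, neurons and other cells were counted in the same fit. Over all genes tested, 11.3% were called higher and 3.43% lower. At an average log2 CPM of at most 3, 1656 of 7584 genes were called higher, which bears on the lists of low summed level. Of 12 genes of dividing cells, 11 were called lower, and their summed level was 587 to 1070 CPM in controls against 212 to 245 in the libraries labelled Sox9. Radial glia markers were lower in 5 of 10 (891.7 to 1545 against 495 to 638 CPM), and intermediate progenitor markers in 2 of 10 (903.5 to 1000 against 736 to 945 CPM). None of 11 neuron markers was called in either direction (14300.0 to 17930 against 13260 to 15410 CPM). At an unadjusted p under 0.05, 4 of them were lower and 0 higher, against 17.3% and 26.8% of all genes. Oligodendrocyte precursor markers were higher in 5 of 6 (4.97 to 7.43 against 20.1 to 53.4 CPM) and endothelial ones in 2 of 5 (2.58 to 10.25 against 14.9 to 37.7 CPM). Of 6 astrocyte markers, 3 were higher and 1 lower (65.95 to 116.2 against 46.6 to 79.9 CPM).

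Single calls have to be read beside the 11.3% of all genes called higher, and the 1656 of 7584 genes in the range of lowest level. A single marker was higher for oligodendrocytes (of 4), mural and meningeal cells (of 5), microglia (of 6) and erythroid cells (of 5). Their summed levels were 18.2 to 24.9 against 25.2 to 31.6 CPM, 7.73 to 8.69 against 11.1 to 22.4 CPM, 9.65 to 33.6 against 12.4 to 58.6 CPM, and 2.10 to 24.5 against 13.3 to 93.2 CPM. No marker was at 0 in all libraries, and *Cldn11* of oligodendrocytes was at 0 in the controls. The part of these cells in the values of the 31 genes was not tested. In sorted bulk samples, fewer cells of a type and less RNA per cell cannot be told apart.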

How the data were processed

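RNA-Seq of 7 libraries was used, 3 of the control construct and 4 of the conditional Sox9 construct, grouped by their titles. RNA was extracted from the sorted cells and cDNA was made with poly-dT primers and template switching. According to the submitters' processing notes, bcl2fastq 2.17.1.14 and STAR 2.5.2b were used with the GRCm38 genome. Whole-number counts of reads per Ensembl gene, not normalized, were deposited by the authors. The counting program and its use of strand are not given in the sources used here. A deposited FPKM table of the same reads was not used.

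Symbols, positions and exonic lengths came from GENCODE vM21, which held 36345 of the 38124 genes. Counts were tested with edgeR 4.0.16 (R 4.3.3; TMM, filterByExpr, quasi-likelihood test, two-sided, no covariate) and p-values were adjusted by Benjamini-Hochberg over 16522 genes, with a threshold of 0.01. The standard error is the absolute log2 fold change divided by the square root of F. Ratios were tested with scipy 1.17.1. The alternatives used DESeq2 1.42.0 and limma 3.58.1. The code was tested on simulated data.

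The genes, the lists and the motifs were chosen with earlier results of these data known. All 31 genes are named, with *Sox9*, the partner of a ratio and, of each other list, the called genes or the 3 with the smallest p. Replicates of a group differed by 7.54 to 20.7 times the sampling noise (chi-square per degree of freedom, 9 pairs), so none was a copy of another. For single genes, the depth of 4429704 to 12907778 counts sets the counting error.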

Additional observations from a re-analysis of the deposited data

Results flagged for a closer look

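In 41 groups of 4 values, the libraries labelled Sox9 were searched for a value far from the rest, by Dixon's criterion on the gap over the range, which chance exceeds in about 1 of 20 groups. *Elovl5* stood out in Sox9 replicate 2, with 135.6 CPM against 114.7 to 116.3 in the other 3 libraries (gap over range 0.926). The share of counts on the 31 genes stood out in Sox9 replicate 3, at 0.6573% against 0.588 to 0.595% in the others (0.901). Without that library, the ratio of group shares was 0.902 in place of 0.928.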

How the results depend on the processing

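Of 558 values of single genes under 18 alternatives, 464 kept their direction and their side of the threshold, 35 were no longer past it, 11 were newly past it and 48 changed sign, in 11 genes that were called in no setting. The number of all genes called higher (1862) was 638 with at least 10 counts in every library, 363 after loess, 889 when tested against a 1.5-fold change (glmTreat) and 3616 at an adjusted p under 0.05. The number called lower (567) was, in the same settings, 204, 284, 143 and 1787, and it was 1391 with DESeq2, 224 with library totals, 1452 without a filter and 239 with upper quartile factors. The 31 genes called lower (3) were 8 with DESeq2, 8 without a filter, 9 at an adjusted p under 0.05, and 0 with at least 10 counts, loess, glmTreat, library totals or upper quartile factors. Other pathway genes called higher (6) were 1 with at least 10 counts, 2 after loess and 10 at an adjusted p under 0.05. Those called lower (8) were 17 with DESeq2, 17 without a filter, 5 over protein-coding genes alone, 2 with at least 10 counts, 1 after loess, 1 with glmTreat, 2 with library totals, 3 with upper quartile factors and 22 at an adjusted p under 0.05. Upper quartile factors, library totals and the filter of 10 counts moved all shared genes up by 0.198, 0.231 and 0.138 log2 units at the median. The cause of the changes was not tested beyond these shifts.

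The median log2 fold change of the 31 genes (-0.28) was -0.14 with at least 10 counts, -0.037 after loess, -0.045 with library totals and -0.076 with upper quartile factors. In the same order, that of the sterol genes (-0.28) was -0.14, -0.060, -0.049 and -0.079, and that of the regulators (-0.24) was -0.11, -0.017, -0.014 and -0.047. That of the fatty acid genes (-0.11) was 0.029, 0.083, 0.12 and 0.087, so it turned above 0 in all 4.

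Single genes changed sign as follows. With at least 10 counts, *Mvk* was 0.064, *Sqle* 0.044, *Acaca* 0.060, *Fasn* 0.029, *Elovl6* 0.078 and *Fads1* 0.076. After loess, *Mvk* was 0.11, *Sqle* 0.17, *Cyp51* 0.083, *Sc5d* 0.042, *Acaca* 0.083, *Fasn* 0.11, *Elovl6* 0.19 and *Fads1* 0.17. With library totals, *Mvk* was 0.15, *Sqle* 0.14, *Cyp51* 0.057, *Sc5d* 0.011, *Acaca* 0.15, *Fasn* 0.12, *Elovl6* 0.17 and *Fads1* 0.16. With upper quartile factors, *Mvk* was 0.12, *Sqle* 0.11, *Cyp51* 0.024, *Acaca* 0.12, *Fasn* 0.087, *Elovl6* 0.14 and *Fads1* 0.13. With DESeq2, *Mvd* was -0.0070, *Tm7sf2* -0.050 and *Hsd17b7* -0.031. Without a filter, *Mvd* was -0.012, *Tm7sf2* -0.057 and *Hsd17b7* -0.035.

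Leaving out each library in turn gave 827 (control replicate 2) to 1590 genes called higher and 208 (control replicate 2) to 475 (control replicate 1) called lower, with fewer samples in each fit. The 31 genes called lower numbered 0 to 2, and other pathway genes called lower 1 (control replicate 2) to 5 (control replicate 1 or Sox9 replicate 2). The median of the 31 genes ranged from -0.30 to -0.16, and that of the sterol genes from -0.32 to -0.17, the upper ends without Sox9 replicate 4. That of the fatty acid genes ranged from -0.21 (without control replicate 2) to -0.022 (without Sox9 replicate 4), and that of the regulators from -0.28 (without control replicate 1) to -0.16 (without Sox9 replicate 1). The difference in log2 *Srebf2* to *Srebf1* ratio stayed above 0, from 0.85 to 1.07, and that of *Insig1* to *Insig2* below it, from -0.65 to -0.44. Among genes that kept their sign, 11 moved by over 1.5 times without 1 library, none of them called. Without Sox9 replicate 4, *Fdps* was -0.22, *Fdft1* -0.16, *Nsdhl* -0.19, *Ebp* -0.18, *Sc5d* -0.12 and *Dhcr7* -0.091. Without Sox9 replicate 3, *Pmvk* was -0.20, and without Sox9 replicate 1, *Cyp51* was -0.090. Over the 7 fits *Sc5d* came nearest to 0 at -0.052, *Sqle* ranged from -0.15 to -0.011, *Srebf2* from 0.083 to 0.22 and *Fads2* from 0.071 to 0.33. The ranges of the genes that changed sign were those of *Mvk* (-0.22 to 0.075), *Mvd* (-0.038 to 0.20), *Tm7sf2* (-0.029 to 0.19), *Hsd17b7* (-0.014 to 0.14), *Acaca* (-0.14 to 0.051), *Fasn* (-0.22 to 0.017), *Elovl6* (-0.15 to 0.013) and *Fads1* (-0.13 to 0.059).

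Same-numbered libraries correlated at -0.0356 to 0.118 in their deviations from the group means (3 pairs by title). So few pairs cannot decide whether the numbers pair the samples. With a replicate block by titles, 400 genes were called higher and 218 lower, 2 of the 31 genes lower (*Acly* and *Scd2*), and 2 other pathway genes higher and 2 lower, and *Tm7sf2* was -0.020. With a block by the numbers in the descriptions, these were 1034 and 353, 1 (*Insig1*), and 5 and 3, and *Hsd17b7* was -0.011.

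At 4429704 counts, the shallowest library left *Scd1*, *Srebf1*, *Scap*, *Tm7sf2* and *Idi1* with 30 to 72 counts. The standard errors of their log2 fold changes were 0.20 to 0.30, among the largest of the 31.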
